A study of Mus musculus and Mus musculus
Rattus norvegicus with 30 samples.

Results

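The comparison covered 14 RNA-seq libraries of mouse embryonic stem cells (mESCs) from a series of 30 samples, 20 of which were mESC RNA-seq libraries. Each cell line carried an inducible, Flag-tagged transgene for rat Cdx2 (rCdx2) in which residues of the DNA binding domain had been changed towards the mouse protein. Change 1 replaced tyrosine with phenylalanine, change 2 replaced alanine with serine, and change 3 removed an asparagine. The 8 libraries with change 3 came from 4 constructs, R3 (change 3 alone), R13 (changes 1 and 3), R23 (changes 2 and 3) and R123 (all 3 changes). The 6 libraries without it came from 3 constructs, R1, R2 and R12, named in the same way (rCDX2_R3 OE, rCDX2_R12 OE and so on in the labels). The rule that assigns a library to a side uses its construct name and no measured value. Each construct gave 2 libraries, replicate 1 and replicate 2, and no library of unmodified rCdx2 (rCdx2-OE), of mouse Cdx2 (mCdx2-OE, which has all 3 changes by nature) or of wild-type cells (WT) entered the test.

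All constructs were brought in by lentivirus as stable lines and switched on with doxycycline through a Tet-On system, so both sides of the comparison carried the drug-responsive cassette and a mutated rat protein. The dose and time of induction are given in the methods for mCdx2 and rCdx2 only. Nothing in the sources says that the libraries of a construct came from separate lines, so the p-values below measure the spread among these libraries, and change 3 and the individual lines that carry it cannot be told apart. Library totals were 13592467 to 20287800 counts with change 3 and 12698443 to 20638317 without it.

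Cdx2 is a caudal-type homeobox transcription factor that binds AT-rich sites, specifies the trophectoderm in the early embryo, patterns the posterior body axis through Hox genes and maintains the intestinal epithelium. In mESCs its forced expression turns on trophoblast genes and weakens the pluripotency network. The homeodomain is its DNA binding domain, and the comparison asked what removing a single residue there does to the genes expressed.

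The induced gene itself was lower in the lines with change 3. Cdx2 (chr5:147300805-147307270, minus strand, GRCm38) was counted at 146 CPM (counts scaled to library size by TMM) in R1 replicate 1 and 69.2 in replicate 2. In R2 it was at 146 and 61.5 CPM, and in R12 at 145 and 60.6 CPM. With change 3 it was at 94.5 and 44.3 CPM in R3, at 76.8 and 37.1 CPM in R13, at 65.0 and 38.6 CPM in R23, and at 62.1 and 38.8 CPM in R123. Within each replicate number every library with change 3 was below every library without it, whereas the sets overlapped when replicates were pooled (37.1, 53.2 and 94.5 CPM as lowest, median and highest with change 3, and 60.6, 107 and 146 CPM without it). Replicate 1 held 1.6 to 2.39 times as much Cdx2 as replicate 2 in all 7 mutants.

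Averaged per construct, Cdx2 was 1.78-fold lower with change 3, a difference of -0.83 in log2 CPM between 4 and 3 construct means (exact permutation test, two-sided, p = 0.0286, the smallest that 35 splits allow). The edgeR quasi-likelihood test, with the replicate number as a block, gave a log2 fold change of -0.84 ± 0.07 (SE, adjusted p = 7.57e-11). Leaving out R2 or R12 replicate 1 gave an exact permutation p of 0.0571, and R3 or R13 replicate 2 gave 0.0857 and 0.0571. The mean of that construct then rests on 1 replicate number, while replicate 1 held more Cdx2 than replicate 2 in every mutant. Leaving out a construct gave an exact permutation p of 0.0667 or 0.1, which are the smallest that 6 constructs allow. Reads of the rat transgene align to the mouse gene, so this level sums the transgene and the endogenous gene. The libraries outside the test had 70.5 and 66.7 CPM (rCdx2-OE), 97.7 and 126 CPM (mCdx2-OE) and 1.37 and 1.23 CPM (WT).

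**Figure D1:**
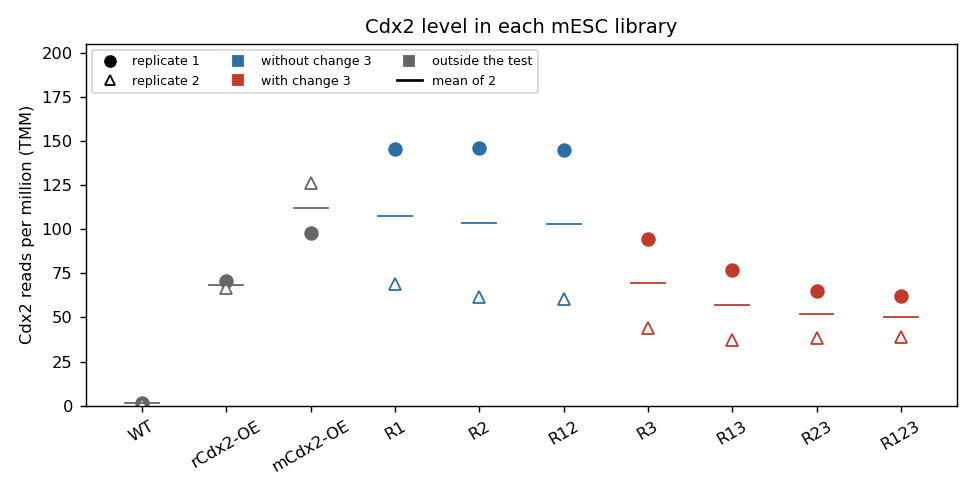
Cdx2 level in every mESC library, in CPM on a linear axis that starts at 0, with filled circles for replicate 1, open triangles for replicate 2 and a line at the mean of both. In each replicate the 4 constructs with change 3 (red) sit below the 3 without it (blue), R3 being the highest of the 4.

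A large share of the transcriptome differed along with change 3, mostly by small amounts. Of 14057 genes tested, 8076 (57.5%) passed an adjusted p of 0.05, 3985 higher (28.3%) and 4091 lower (29.1%) with change 3. With library totals in place of TMM scaling the split was 4849 higher and 3291 lower, and the median of all genes moved from -0.00136 to 0.0463 on the log2 scale. Among the called genes, 6522 moved the same way in all 6 matched library pairs (R13 against R1, R23 against R2 and R123 against R12, in each replicate). A change of over 2-fold was found for 504 genes (3.59%), 287 higher and 217 lower. With replicate 1 alone (7 libraries) 5177 genes were called, and with replicate 2 alone 6527 genes.

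Constructs on the same side of the comparison differed little, with 1 exception. In a fit of all 7 mutants, chosen after the data were seen, R1, R2 and R12 differed from each other in 2 to 49 of 14699 genes by edgeR. R13, R23 and R123 differed from each other in at most 8 genes by edgeR, with 765 to 1658 at an unadjusted p under 0.05. R3, the construct with change 3 alone, differed from these 3 in 410 to 711 genes, and from R1, R2 and R12 in 1952 to 3637 genes. The other 9 pairs of 1 construct with change 3 and 1 without had 4968 to 6043 genes called. Fitted against R13, R23 and R123 within the libraries with change 3, R3 had 268 genes higher and 294 lower of 14274 (3.94%).

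R3 lay between the sides. The genes called higher with change 3 were a median of 0.258 (log2 CPM) above the mean of R1, R2 and R12 in R3, and 0.373 to 0.375 above it in R13, R23 and R123. For the genes called lower the median difference was -0.176 in R3 and -0.267 to -0.285 in the other 3. These genes were called with the same libraries, so the values describe the order only. The first principal component of the 2000 most variable genes held 51.9% of the variance and placed R1 and R2 at -22.4 to -24.4, R12 at -16.4 and -16.6, R3 at 6.1 and 6.16, and R13, R23 and R123 at 18.3 to 19.8. The second (9.15%) separated the replicate numbers. The geometric mean of Cdx2 per construct was in the same order. It was 93.7 to 100 CPM without change 3, 64.7 CPM in R3 and 49.1 to 53.4 CPM in R13, R23 and R123. Within each replicate number single libraries kept it, with R1, R2 and R12 highest, R3 next and R13, R23 and R123 lowest. Across replicate numbers they did not, and replicate 1 held more Cdx2 than replicate 2 in every mutant. R1 held 146 and 69.2 CPM of Cdx2 in replicates 1 and 2 and lay at -22.4 and -22.8 on the first component. R3 replicate 1, with 94.5 CPM, held more Cdx2 than R1 replicate 2 and lay at 6.16. The part of Cdx2 level in this order was not tested.

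**Figure D2:**
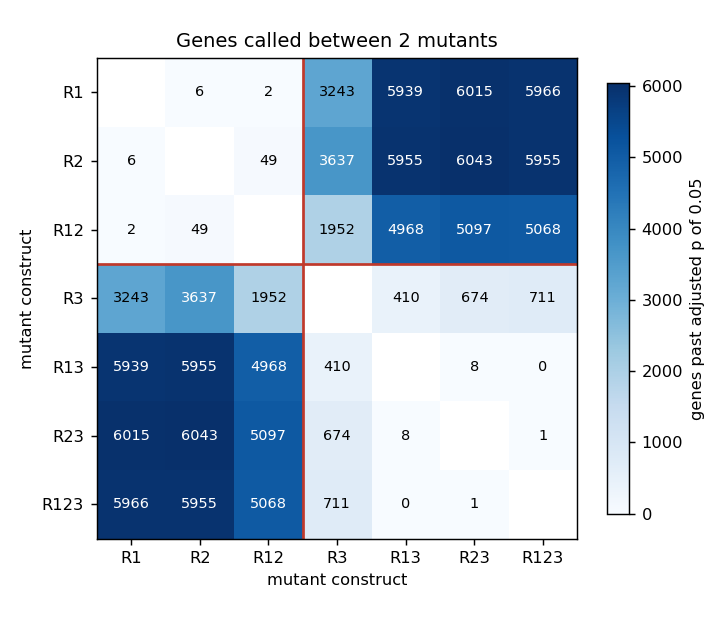
Number of genes past an adjusted p of 0.05 between each pair of mutants, in 1 edgeR fit with a replicate block. Both axes list the constructs, the red lines part those without change 3 (R1, R2, R12) from those with it, and the off-diagonal blocks hold 1952 to 6043 genes against at most 711 within the blocks.

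Because Cdx2 level and change 3 moved together, the fit was repeated with log2 Cdx2 as a covariate. In that fit 899 of 14402 genes tested were called for change 3, 405 higher and 494 lower. Of the 899, 682 were among the 8076 and 658 of those had the same direction. Within a replicate number the Cdx2 levels of the sides did not overlap, so the part of Cdx2 level and that of change 3 cannot be told apart. The results below are from the fit without the covariate. Of the named genes described next, 10 stayed past the threshold with it (5 of 12 rises and 5 of 12 falls) and 14 did not.

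The 12 largest falls among well counted genes held Myc, Lin28a, Id3 and Dnmt3l, regulators known from embryonic stem cells. In all 12 the 8 libraries with change 3 lay below the 6 without it, as in 11.2% of all genes tested. The 12 were picked by size and direction in these same libraries, so their separation follows largely from the choice. Enox1 (chr14:77156763-77721760, plus strand), which encodes a cell surface NADH oxidase, had 1.57, 2.01 and 4.23 CPM (lowest, median and highest) with change 3 and 16.8, 22.9 and 25.5 CPM without it. Its log2 fold change was -3.09 ± 0.15 (SE, edgeR adjusted p = 1.88e-14). Myc, a growth-promoting transcription factor and Wnt target, had 0.966, 1.46 and 3.83 CPM with change 3 against 7.36, 9.98 and 11.5 CPM without it (log2 fold change -2.40 ± 0.18). With Cdx2 level as a covariate the log2 fold change was -0.75 in Myc (edgeR adjusted p = 0.371) and -2.32 in Enox1 (adjusted p = 0.00387). In Myc, as in Enox1, the gap between the sets exceeded the range within the set with change 3.

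Id3, an inhibitor of basic helix-loop-helix factors that responds to Bmp signals, had 1.64, 2.19 and 5.58 CPM with change 3 and 13.5, 15.1 and 16.4 CPM without it. Dnmt3l, the catalytically inactive partner of the de novo DNA methyltransferases, had 5.86, 8.17 and 10.6 CPM against 24.2, 38.7 and 46.3 CPM. Lin28a, an RNA-binding protein that blocks let-7 maturation, had 28.4, 30.6 and 39.6 CPM against 84.9, 103 and 111 CPM (log2 fold change -1.65 ± 0.07, edgeR adjusted p = 1.82e-16). With the Cdx2 covariate Id3 was at -0.74 on the log2 scale (edgeR adjusted p = 0.31), Dnmt3l at -1.36 (adjusted p = 0.0137) and Lin28a at -1.24 (adjusted p = 4.19e-05). These 3 genes were much higher in WT cells, at 47.4 and 49.7, 293 and 298, and 316 and 324 CPM.

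Phlda2, an imprinted gene that restrains placental growth, was at 3.65, 4.22 and 6.23 CPM with change 3 and at 15.8, 19.5 and 20.9 CPM without it. It stood apart from most other named falls, since WT cells had only 5.92 and 6.30 CPM and rCdx2-OE 81.7 and 74.9 CPM. Trh (thyrotropin-releasing hormone), Slc39a14 (a zinc and iron importer), Cyp1a1 (a cytochrome P450), Lrrn2, Ntn1 (the guidance cue netrin) and Nt5e (the ectoenzyme that makes adenosine) completed the 12, with log2 fold changes from -2.25 to -1.62. In 10 of the 12 falls both WT libraries were above both rCdx2-OE libraries. Trh was at 1.58 and 1.46 CPM in rCdx2-OE, below all 14 mutant libraries, and Ntn1 at 10.1 and 9.71 CPM, within the range with change 3.

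The 12 largest rises were genes of low level and varied function. Here too the sets did not overlap in any of the 12, as in 10.6% of all genes tested. These 12 were picked in the same way, so their separation is a description only. Copz2 (chr11:96849870-96861203, plus strand), a subunit of the COPI vesicle coat, had 3.58, 5.86 and 9.18 CPM with change 3 and 0.827, 1.0 and 2.16 CPM without it (log2 fold change 2.19 ± 0.22, edgeR adjusted p = 4.84e-09). Both R12 libraries, at 2.13 and 2.16 CPM, were the highest of the 6 without change 3. B4galnt2, a glycosyltransferase of the gut epithelium, had 3.77, 8.31 and 9.48 CPM against 1.83, 2.05 and 2.65 CPM. Actn2, an alpha-actinin of striated muscle, had 9.52, 13.9 and 16.2 CPM against 2.59, 4.08 and 5.44 CPM.

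Zc3h6, a zinc finger protein, had the smallest error among the rises, with 9.52, 11 and 11.5 CPM with change 3 and 3.23, 3.65 and 4.77 CPM without it (log2 fold change 1.49 ± 0.09, edgeR adjusted p = 8.72e-13). The others were Trim52, Cntd1, Zfp773, Ubap1l, Adgra2 (a receptor that aids Wnt7 signalling), Cacng6 (a calcium channel subunit), Igsf23 and Tarm1, with log2 fold changes from 1.43 to 1.92. In 8 of the 12 rises both WT libraries were below both rCdx2-OE libraries. Levels in rCdx2-OE did not sit on 1 side of the mutants, since Adgra2 was at 45.4 and 47.1 CPM there, above all 14, and Trim52 at 1.58 and 1.82 CPM, within the range without change 3. In all 24 named genes R3 was the construct with change 3 whose mean lay nearest to R1, R2 and R12. The named genes had to move the same way in the matched pairs of R13, R23 and R123, which leave R3 out, so this order is a description only.

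**Figure D3:**
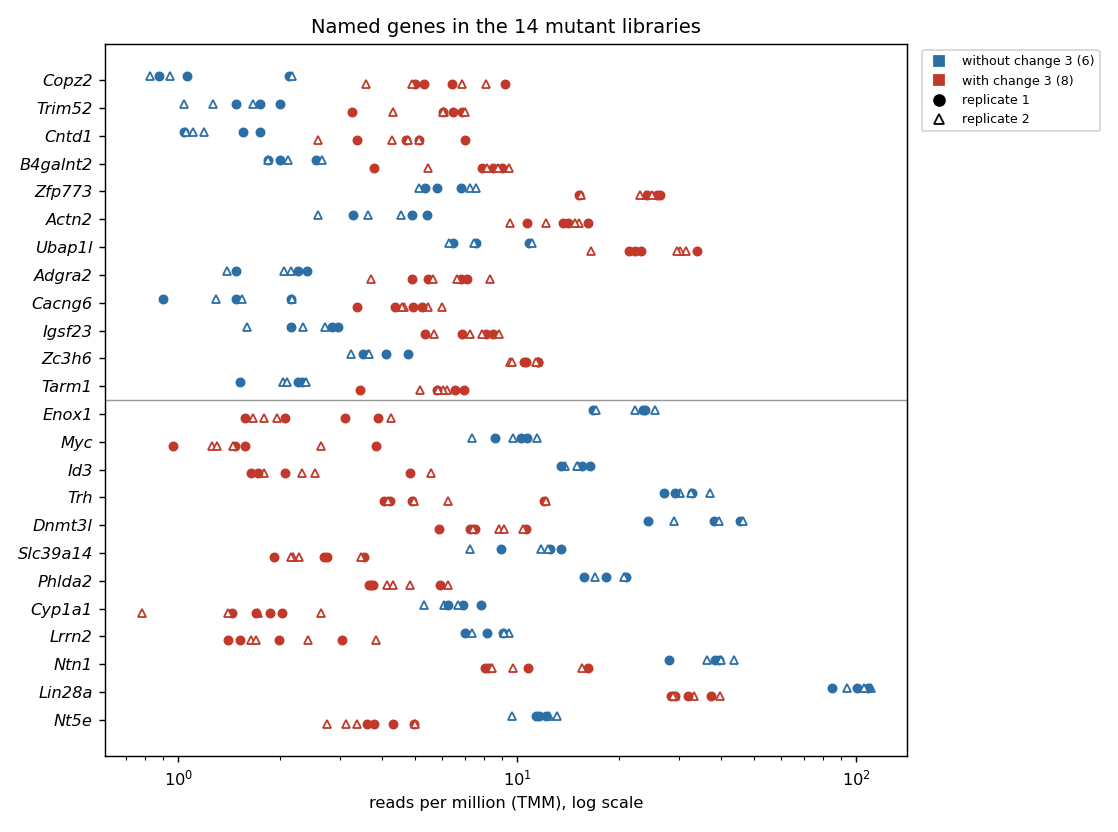
CPM of the 12 named rises (top) and the 12 named falls (bottom) in each of the 14 mutant libraries, on a log axis, with circles for replicate 1 and triangles for replicate 2. In each row the 8 libraries with change 3 (red) and the 6 without it (blue) do not overlap.

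Genes of the trophoblast programme were mostly lower with change 3. Of 17 tested trophoblast stem cell factors, 10 were lower and 3 higher, with a median log2 fold change of -0.601 against -0.00136 over all genes tested. Over all genes tested 29.1% were lower and 28.3% higher. This and the following list counts of the fit without the covariate are to be read against those shares. Gata2, a trophoblast transcription factor, had 11.2, 14 and 18.1 CPM with change 3 and 24.7, 30.1 and 39.0 CPM without it, with 2.15 and 1.84 CPM in WT and 100 and 107 CPM in rCdx2-OE. Its relative Gata3 had 1.86, 2.52 and 3.69 CPM against 2.90, 4.14 and 5.35 CPM, with overlap between the sets. Ascl2, which maintains trophoblast progenitors, was at 2.80, 3.28 and 4.17 CPM against 7.16, 9.01 and 10.1 CPM (log2 fold change -1.36 ± 0.11). The sets did not overlap in Gata2 or Ascl2. With Cdx2 level as a covariate, 3 of 18 trophoblast stem cell factors were called, all lower. List counts with the covariate are to be read against 405 genes higher and 494 lower of 14402 tested in that fit.

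Fgfr2, the receptor through which Fgf4 sustains trophoblast stem cells, had a log2 fold change of -0.84, and its ligand Fgf4 one of 0.53, from 179 to 221 CPM without change 3 to 274 to 304 CPM with it. Of 20 tested simple epithelial keratins and junction genes 10 were lower and 3 higher (median -0.0627). The trophectoderm keratins Krt8, Krt18 and Krt7 had log2 fold changes of -0.97, -0.76 and -0.60, while Atp1b1, a sodium pump subunit, and Aqp3, a water channel, rose by 0.46 and 0.24. The trophoblast stem cell factors that rose were Ets2, Tead4 and Sox2, by 0.33, 0.28 and 0.18 on the log2 scale. Of the same list, Tfap2a, Tfap2c, Esrrb and Sox21 did not pass the test. Of 8 tested genes of differentiated trophoblast, 5 were lower, among them Gcm1, which drives syncytiotrophoblast formation (-0.81), Plac1 (-1.03) and Peg10 (-1.16), and Cited2 alone was higher (0.18).

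Hox genes, direct targets of Cdx2 in the posterior embryo, did not move as a block. In the Hoxa cluster Hoxa7 had 8.92, 9.70 and 12.7 CPM with change 3 and 20.8, 24.5 and 28.4 CPM without it (log2 fold change -1.27 ± 0.09, edgeR adjusted p = 4.80e-12). Hoxa5 and Hoxa3 were also lower, with log2 fold changes of -1.28 and -0.68. Hoxb9 (-1.0) and Hoxb8 (-1.86, at no more than 2.08 CPM in any mutant) were lower. In the Hoxd cluster Hoxd4 was lower (-0.98), and Hoxd9 and Hoxd8 were higher (0.79 and 0.42). Of 7 tested Hoxc genes, Hoxc12 and Hoxc13 were higher (0.42 and 0.28) and the other 5 did not pass the test. Whether reads were shared between Hox paralogs was not tested.

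The Wnt list gave the largest lower share of the lists with over 5 genes tested. Of 15 tested Wnt targets and feedback genes, 12 were lower and 3 did not pass the test, with a median of -0.692. With library totals in place of TMM scaling 1 was higher and 12 lower. Axin2, a negative feedback component of the pathway, had 26.6, 30.9 and 37.6 CPM with change 3 and 50.0, 56.1 and 57.5 CPM without it (log2 fold change -0.78 ± 0.06). Notum, a secreted Wnt deacylase, had 7.59, 11.8 and 20.3 CPM against 25.6, 28.1 and 32.7 CPM, and Ccnd1, a G1 cyclin, 50.2, 53.6 and 64.2 CPM against 82.5, 89.2 and 91.5 CPM. The sets did not overlap in Axin2, Notum or Ccnd1. Dkk1, Lef1 and Rnf43 fell by 0.81, 0.79 and 0.92 on the log2 scale, and Tcf7, Nkd1 and Nkd2 did not pass the test.

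Of 9 tested primitive streak genes 6 were lower and 1 higher (median -1.18). Wnt5a, a non-canonical Wnt ligand of the posterior embryo, had 0.435, 0.770 and 1.12 CPM with change 3 and 2.71, 4.52 and 6.64 CPM without it (log2 fold change -2.56 ± 0.18). Sp5, a transcription factor induced by Wnt, had 4.21, 6.53 and 9.64 CPM against 13.6, 16.0 and 20.1 CPM. Evx1, Nkx1-2 and Sp8 fell by 2.43, 1.18 and 1.19 on the log2 scale, and Gsc, an organiser gene, rose by 0.78. Levels in this group were low, with Evx1 at no more than 1.54 CPM in any mutant. With Cdx2 level as a covariate, 1 streak gene and 1 Wnt gene were called, both lower, and the medians were 0.0583 and -0.0253.

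Genes of Bmp and Fgf signalling were also more often lower than higher. Of 13 tested Nodal, Bmp and Id genes 7 were lower and 3 higher. Bmp4, a ligand of the extraembryonic ectoderm, had 0.616, 0.905 and 1.29 CPM with change 3 and 1.98, 2.81 and 4.17 CPM without it (log2 fold change -1.74 ± 0.18), and its targets Id1 and Id2 fell by 1.25 and 0.69 on the log2 scale beside Id3. Bmp7 was higher, at 8.17, 9.19 and 11.2 CPM against 3.75, 4.89 and 5.75 CPM. Of 13 tested genes of Fgf signalling 9 were lower and 3 higher. The feedback inhibitors Spry4, Dusp4 and Dusp6 fell by 2.88, 0.86 and 0.43, with Spry4 at no more than 0.391 CPM with change 3. With Cdx2 level as a covariate 1 gene was higher and 1 lower in each of these lists, with medians of 0.0739 (Nodal, Bmp and Id) and 0.0535 (Fgf).

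In the epithelial-mesenchymal transition list, 7 of 11 genes were lower and 3 higher, and the lower ones include Esrp1, an epithelial splicing factor (-0.54). Cdh2 (N-cadherin) had 8.12, 12.2 and 15.0 CPM with change 3 and 22.1, 25.4 and 28.0 CPM without it. Vim (vimentin) had 59.1, 61.5 and 74.2 CPM against 91.6, 96.3 and 104 CPM, and Snai1, a repressor of E-cadherin, fell by 1.33 on the log2 scale. Cdh1 (E-cadherin) had a log2 fold change of 0.06 and did not pass the test. Fn1 (fibronectin) was higher, by 0.35.

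Pluripotency genes moved in both directions. Of 13 tested naive pluripotency genes 7 were higher and 3 lower (2 lower with library totals). Nanog had 866, 922 and 967 CPM with change 3 and 683, 723 and 744 CPM without it (log2 fold change 0.36 ± 0.03). Dppa3, a maternal factor that protects DNA methylation marks, had 77.1, 93.1 and 103 CPM against 50.5, 57.7 and 62.3 CPM, and Prdm14, Tcl1 and Tfcp2l1 rose by 0.42, 0.72 and 0.14 on the log2 scale. Tbx3, Klf2 and Klf5 were lower, by log2 fold changes of -0.28, -0.24 and -0.11. Pou5f1 (Oct4) had a log2 fold change of 0.02 and did not pass the test. Of 8 core pluripotency genes 4 were lower and 3 higher. Utf1 and Sall4 fell by 0.89 and 0.35, and Dppa5a rose, with 635, 779 and 825 CPM against 451, 490 and 558 CPM. In Nanog, Dppa3, Dppa5a and Utf1 the sides did not overlap.

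Of 9 genes of DNA methylation and Tet enzymes, Dnmt3l among them, 5 were lower and 3 higher. Dnmt3b, a de novo methyltransferase, had 92.4, 104 and 134 CPM with change 3 and 184, 222 and 240 CPM without it (log2 fold change -1.0 ± 0.07), while its relative Dnmt3a rose by 0.15. Tet1, which oxidises methylated cytosine, had a log2 fold change of 0.17. Of 14 tested germline genes that are silenced by methylation 9 were higher and 1 lower, with a median of 0.387. Dazl, a germ cell RNA-binding protein, had 31.9, 42.0 and 56.0 CPM with change 3 and 16.9, 25.8 and 30.6 CPM without it, and Sycp3 and Mov10l1 rose by 0.75 and 0.71. DNA methylation was not measured in this series. With Cdx2 as a covariate the median of the germline genes was -0.199.

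Imprinted genes were lower in 14 and higher in 3 of 24 tested, with a median of -0.242. H19, a growth-restraining RNA, had 766, 894 and 1117 CPM with change 3 and 1368, 1618 and 2096 CPM without it, against 53.9 and 55.0 CPM in WT and 6180 and 5335 CPM in rCdx2-OE. Mest (-1.31), Cdkn1c (-1.06) and Igf2 (-0.84) also fell, whereas Grb10 and Igf2r rose by 0.69 and 0.32. Xist, the RNA that coats the inactive X chromosome, had 1.64, 2.37 and 3.38 CPM with change 3 and 5.31, 7.98 and 8.44 CPM without it (log2 fold change -1.6 ± 0.13). The X chromosome as a whole was not shifted with it, as given below.

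The cholesterol and ATF4 lists had the highest shares of rises among the lists tested. Of 22 tested genes of cholesterol synthesis and uptake 19 were higher and 1 lower (median 0.291). Msmo1 and Dhcr7, enzymes of the late pathway, had 146, 168 and 177 CPM against 92.7, 101 and 108 CPM, and 101, 110 and 124 CPM against 65.4, 70.1 and 75.6 CPM. Insig1, which retains the sterol sensor in the endoplasmic reticulum, rose by 0.53 on the log2 scale and Hmgcs1 by 0.49. With the Cdx2 covariate 7 of these genes were called, all higher, with a median of 0.243.

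Of 20 tested genes of the ATF4 amino acid response 17 were higher and 1 lower (median 0.377). Nupr1, a stress-induced chromatin protein, had 75.3, 100 and 109 CPM with change 3 and 48.2, 49.7 and 56.6 CPM without it (log2 fold change 0.91 ± 0.07). Trib3, Phgdh and Asns, a pseudokinase and enzymes of serine and asparagine synthesis, rose by 0.57, 0.52 and 0.35. Sesn2 fell by 0.32. Of 11 tested heat shock genes 8 were lower and 1 higher, with Hspa8 at a log2 fold change of -0.48 and Hsph1 at -0.44. Of 15 genes of the unfolded protein response 5 were higher and 3 lower, with Hspa5 (BiP) at -0.30. In the covariate fit 2 ATF4 genes were called, both higher, and 6 heat shock genes, all lower.

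Among the other lists, matrix genes were higher in 10 and lower in 3 of 17, with Nid1 (nidogen) at 414, 485 and 528 CPM against 273, 295 and 331 CPM. Cell cycle genes were split, 5 higher and 6 lower of 16, and Mki67, a proliferation marker, had a log2 fold change of -0.02. The nuclear respiratory chain had 1 higher and 4 lower of 20, and the mitochondrial transcripts 6 lower and 7 not called of 13, with mt-Nd1 at -0.51. Markers of other cell types were checked as sets. The summed level of 11 fibroblast and feeder cell markers was 12.0 to 14.6 CPM with change 3 and 10.4 to 13.8 CPM without it, 2 were called higher and 2 lower of 5 tested, and Lum was at 0 in all 14 libraries. The 7 endothelial and blood markers summed to 182 to 216 CPM and 129 to 150 CPM, of which Pecam1, also expressed by mESCs, made up 168 to 201 CPM and 116 to 135 CPM. The part of other cells in the results was not tested. In bulk RNA, fewer cells in a state and less RNA per cell cannot be told apart.

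**Figure D4:**
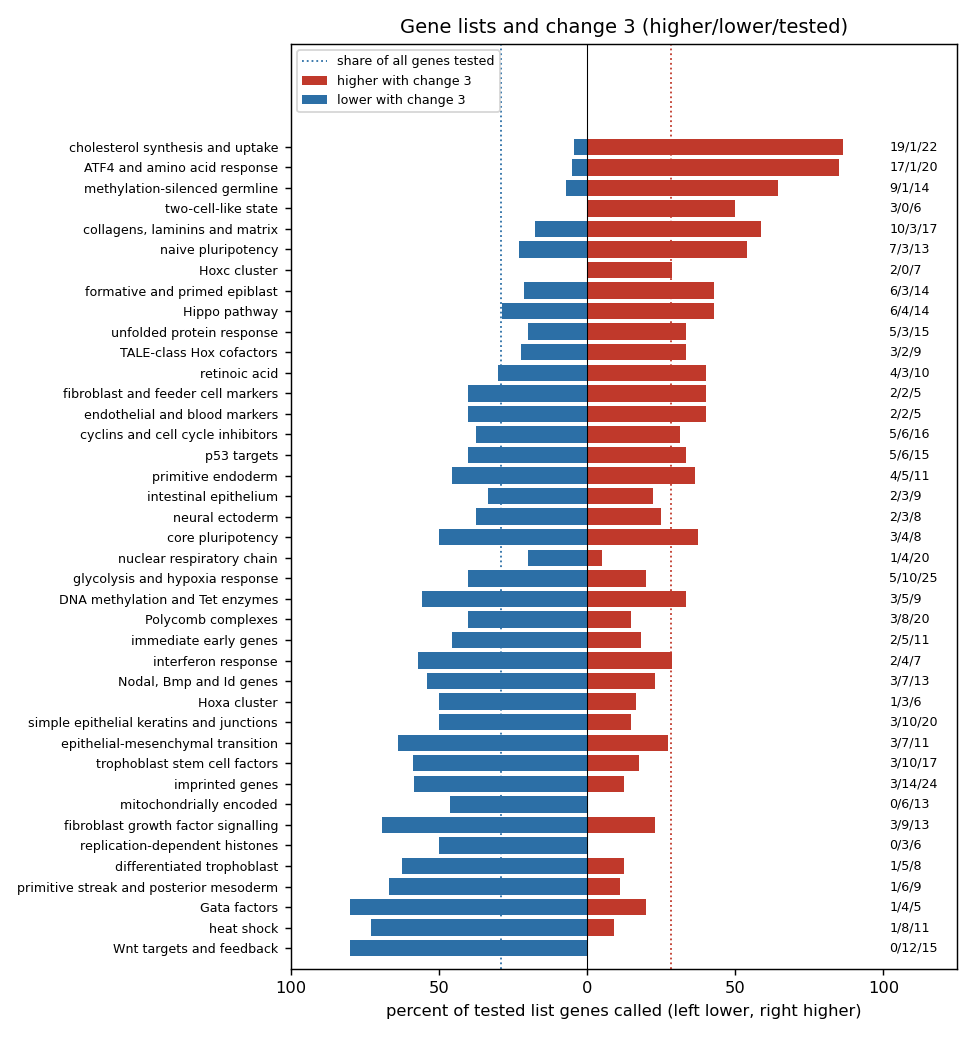
Share of the tested genes of each list (5 or more tested) called higher (red, to the right) or lower (blue, to the left) with change 3, in percent, with the numbers higher, lower and tested at the right. Dotted lines mark the shares over all genes tested, 28.3% higher and 29.1% lower, the Wnt list (12 of 15 lower) is at the bottom and the cholesterol list (19 of 22 higher) at the top, and the Gata factors (4 of 5 lower) have the same lower share as the Wnt list.

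Genes called induced or repressed here differed between rCdx2-OE and WT, in libraries outside the test. The labels name the control WT and do not state its cassette or drug. WT libraries held 74960057 and 94686029 counts, those of rCdx2-OE 24315929 and 12967233. Effects of drug, virus, depth or batch on these lists cannot be told apart from those of rCdx2. In rCdx2-OE against WT (4 libraries) 3231 of 17263 genes (18.7%) were over 2-fold higher and 2852 (16.5%) over 2-fold lower at an adjusted p of 0.05. Of the 2415 induced genes that passed the filter in the mutants, 873 (36.1%) were higher and 537 (22.2%) lower with change 3, with a median log2 fold change of 0.097 (0.0852 to 0.126 over the 6 matched library pairs). Of the 1764 repressed genes, 335 (19%) were higher and 659 (37.4%) lower, with a median of -0.08 (-0.121 to -0.0661). The induced set was thus slightly higher and the repressed set slightly lower with change 3, while Cdx2 itself and most trophoblast genes above were lower. For genes induced over 4-fold the median was 0.0335, with 284 higher and 262 lower of 934.

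RNA of the cells with the rat and with the mouse protein hardly differed. Each had 2 libraries, whereas the change 3 fit had 8 and 6. Cdx2 itself was at 70.55 and 66.73 CPM in rCdx2-OE and at 97.66 and 126.4 CPM in mCdx2-OE. The mouse protein has all 3 changes, yet mCdx2-OE and rCdx2-OE differed in 1 of 15327 genes (0.00652%, edgeR), Krt42, with 902 at an unadjusted p under 0.05. For the 3985 genes higher with change 3 the median log2 difference of mCdx2-OE from rCdx2-OE was 0.0301, and for the 4091 lower genes it was -0.0191, against 0.345 and -0.26 for change 3 itself in the libraries that called them. Every mutant stood apart from rCdx2-OE, R3 with 7175 genes called (46.8%) and R1, R2 and R12 with 6840 to 7220 (44.6% to 47.1%). R13, R23 and R123 had 7332 to 7554 genes called against rCdx2-OE (47.8% to 49.3%). R123 and mCdx2-OE, which both have all 3 changes, differed in 6952 genes (45.4%). R3 and rCdx2-OE differ by change 3 only, and R1 and rCdx2-OE do not differ by it. What set rCdx2-OE apart from all mutants was not tested.

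Binding of Cdx2 near the genes was taken from peaks of Flag ChIP-seq that the authors called on the merged mCdx2-OE and rCdx2-OE libraries. No mutant was profiled in these libraries. A peak centre lay within 10 kb of the 5′ end of 45.7% of the genes higher with change 3, of 46.9% of the lower genes and of 46.9% of the genes not called. Among genes changed over 2-fold the shares were 33.2% of 277 higher and 48.8% of 211 lower genes. Of the named genes, 6 of 12 rises and 4 of 12 falls had such a peak.

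The letters TTTATG, the core of the known Cdx2 site, were searched on both strands (CATAAA on the other) in the 200 bases around each peak centre. They occurred in 40.6% of all 91665 peaks, in 36.0% of the peaks nearest to genes higher and in 35.4% of those nearest to genes lower with change 3, and in 11.9% of 32851 RefSeq promoters of 300 bases. The motif was in 4 of the 10 windows of the named genes (the peak nearest to the 5′ end), which are shown because they are the named genes with both a peak and the motif (GRCm38 plus strand, motif in capitals). The B4galnt2 window (chr11:95918652-95918851) is intergenic, 3860 bases upstream of the gene. The Tarm1 window (chr7:3503645-3503844) is intergenic, 1120 bases upstream, and holds 3 matches. The Id3 window (chr4:136146885-136147084) is intergenic, 3487 bases downstream of the 5′ end. The Lin28a window (chr4:134017113-134017312) lies in an intron of Lin28a, 1629 bases downstream of its 5′ end.
B4galnt2: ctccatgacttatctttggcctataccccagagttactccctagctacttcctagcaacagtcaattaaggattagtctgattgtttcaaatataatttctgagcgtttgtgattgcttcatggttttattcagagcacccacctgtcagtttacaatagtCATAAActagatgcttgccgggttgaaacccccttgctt
Tarm1: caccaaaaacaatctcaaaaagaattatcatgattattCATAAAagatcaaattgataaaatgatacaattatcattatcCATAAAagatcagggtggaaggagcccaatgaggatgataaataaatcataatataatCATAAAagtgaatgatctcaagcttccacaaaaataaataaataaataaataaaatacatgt
Id3: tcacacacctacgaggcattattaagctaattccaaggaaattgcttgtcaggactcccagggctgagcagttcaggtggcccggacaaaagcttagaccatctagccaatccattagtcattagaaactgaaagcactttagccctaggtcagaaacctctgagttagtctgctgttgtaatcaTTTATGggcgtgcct
Lin28a: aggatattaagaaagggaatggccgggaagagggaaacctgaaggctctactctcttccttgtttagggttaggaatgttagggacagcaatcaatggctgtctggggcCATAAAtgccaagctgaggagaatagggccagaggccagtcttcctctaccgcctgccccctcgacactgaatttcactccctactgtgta

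Called genes were found on all chromosomes in similar shares. On the 19 autosomes and the X chromosome the median log2 fold change of genes averaging 50 or more counts lay between -0.043 and 0.0403, and 52.1% to 60.5% of all tested genes were called on each. In single libraries, set against the mean of the 7 mutants of the same replicate number, chromosome medians were -0.0485 to 0.0789. Across 5 classes of gene length the median log2 fold change was -0.0123 to 0.016, and the share of genes called was 50.9%, 55.4%, 58.9%, 59.4% and 62.7% from the shortest to the longest class.

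The effect of change 3 differed between the backgrounds of changes 1 and 2 for few genes. The test of unequal effects in the 3 matched comparisons called 12 of 14490 genes (0.0828%), with 1137 at an unadjusted p under 0.05. H19 had the lowest p, with log2 differences of -1.0 in R13 against R1, -1.15 in R23 against R2 and -0.69 in R123 against R12 (edgeR adjusted p = 0.000286). Fxyd6, a regulator of the sodium pump, had differences of 1.24, 1.31 and 0.75, and Vwf, the von Willebrand factor, differences of 1.16, 1.37 and 0.63. In all 3 genes the difference between R123 and R12 was the smallest, and the direction was shared. Without the replicate block edgeR called 0 genes, with 408 at an unadjusted p under 0.05.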

How the data were processed

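RNA-seq counts per gene were deposited by the authors. They aligned stranded mRNA libraries to mm10 with STAR 2.7.0d and counted read pairs by strand with featureCounts. For ChIP-seq the authors deposited peaks, called with MACS2 on merged mCdx2-OE and rCdx2-OE libraries aligned with Bowtie2 2.3.4.3. Members and gene lists were chosen with earlier results of these data known.

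Counts of the 14 mutant libraries, restricted to the 19919 genes listed in both replicate tables, were filtered with filterByExpr, scaled by TMM and fitted in edgeR 4.0.16 (R 4.3.3, quasi-likelihood, Benjamini-Hochberg adjusted p under 0.05) with change 3 and the replicate number as terms. The standard error is the log2 fold change over the square root of F. Printed levels are CPM scaled by TMM over the 20 mESC libraries. Named genes were the 12 largest rises and falls among genes called, with at least 50 counts on average and the same direction in all 6 matched pairs, without predicted genes. Replicate numbers come from the labels. Deviations of same-numbered libraries correlated in all 21 pairs of constructs (r 0.387 to 0.638 over 11110 genes), so the block was kept. Replicates differed beyond counting noise (chi-square per gene 7.26 to 17.2). The fits were tested on simulated counts. These held no replicate effect and no variation shared by the libraries of a construct, so they could not check either. DESeq2 1.42.0 and limma 3.58.1 gave alternatives. Gene positions are from GENCODE on GRCm38, motifs were searched by exact letters, and promoters are from RefSeq. The 2 columns of read counts per ChIP-seq peak carry abbreviations that match no sample title and were not used.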

Additional observations from a re-analysis of the deposited data

Results flagged for a closer look

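The effect of change 3 differed among its 3 matched comparisons (R13 against R1, R23 against R2 and R123 against R12) for 12 genes, by a test of the interaction in edgeR, and the log2 differences are given in that order. The 3 differences had 1 direction, with the smallest between R123 and R12, in H19 (-1.0, -1.15 and -0.69, edgeR adjusted p = 0.000286), Fxyd6 (1.24, 1.31 and 0.75, adjusted p = 0.00307), Vwf (1.16, 1.37 and 0.63, adjusted p = 0.00307), Peg10 (-1.34, -1.38 and -1.02, adjusted p = 0.00307), Copz2 (3.01, 2.84 and 1.22, adjusted p = 0.0136), Sfmbt2 (-1.06, -1.24 and -0.79, adjusted p = 0.0181) and Cpt1a (0.73, 0.95 and 0.52, adjusted p = 0.034), and in 3 genes given next. Peg10 is an imprinted placental gene, Sfmbt2 an imprinted Polycomb factor of the trophoblast and Cpt1a the mitochondrial carnitine palmitoyltransferase.

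Chchd10 had differences of 0.83, 0.58 and 0.36 (edgeR adjusted p = 0.0412), and Lefty2, an inhibitor of Nodal, 0.37, 0.96 and 0.29 (adjusted p = 0.0119). In Neat1, a nuclear RNA, they were -0.04, -0.53 and -0.02 (edgeR adjusted p = 0.00918). The direction was not shared in the other genes. Ldha, lactate dehydrogenase, had -0.19, 0.21 and -0.05 (adjusted p = 0.0104), and Slc16a3, a lactate exporter, -0.03, 0.89 and 0.05 (adjusted p = 0.0481). Of 50 groups of 4 to 10 samples, 0 had a sample far from the others.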

How the results depend on the processing

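The count of genes called for change 3 (8076) was 8065 with RLE scaling, 8024 with DESeq2 and 7224 without the replicate block. With Cdx2 level as a covariate it was 899, and with a fold threshold on top of the adjusted p it was 2099 (log2 change over 0.5) or 504 (over 1), by construction a subset. Leaving out a library, replicate number or construct gave 5177 to 8400, the lowest without replicate 2. The Cdx2 difference (-0.833) was -0.92 over matched constructs only (exact permutation p = 0.1, the smallest possible there). It was -1.04 to -0.624 with 1 library, replicate number or construct left out. With 1 library left out, the mean of its construct rests on 1 replicate number. The median of genes induced by rCdx2 (0.097) was 0.0335 for genes over 4-fold, 0.145 with library totals and 0.0883 to 0.123 with a construct left out. That of repressed genes (-0.08) was -0.141, -0.0322 and -0.0918 to -0.065. The cause of these shifts was not tested. The count of genes whose effect differed between backgrounds (12) was 38 with all genes kept and 0 without the replicate block (408 at an unadjusted p under 0.05 by edgeR), and 10 by DESeq2. Leaving out a replicate number there leaves no residual freedom, so no test was run. Of 900 values of the 24 named genes and Cdx2 under the alternatives, 885 kept direction and side of the threshold, 15 lost significance, all with the Cdx2 covariate, and 0 turned. These were 14 named genes and Cdx2 itself, whose own level is that covariate, so its loss is by construction. The 24 named genes were picked by size, threshold and direction in these same libraries, so the values kept follow largely from that choice. Copz2 (log2 fold change 1.57, edgeR adjusted p = 0.0516) and Cyp1a1 (-1.39, adjusted p = 0.0542) kept most of their difference. The replicate block changed no call of a named gene. Totals of 12698443 to 20638317 counts limit genes near 1 CPM, such as Evx1 and Spry4.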

Other observations

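Single genes of further lists differed between the libraries with and without change 3. The list counts given here are to be read against the shares over all genes tested, 28.3% higher and 29.1% lower. Ddx58, the RNA sensor RIG-I, had 9.51, 11.9 and 18.2 CPM (lowest, median and highest) with change 3 and 33.3, 34.8 and 36.5 CPM without it (log2 fold change -1.47 ± 0.09). Of 7 tested interferon response genes 4 were lower and 2 higher, Stat2 and Bst2 being the ones that rose. Rarg, a retinoic acid receptor, had 13.5, 14.4 and 18 CPM against 27.7, 32.9 and 36.3 CPM, and among 10 tested retinoic acid genes 4 were higher and 3 lower. In both Ddx58 and Rarg the sides did not overlap, and WT cells were higher than all 14 mutant libraries.

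Vegfa, an angiogenic factor that responds to hypoxia, had 80.0, 107 and 114 CPM with change 3 and 56.3, 58.3 and 61.7 CPM without it. Slc2a1, the glucose transporter, moved the other way, with 166, 191 and 220 CPM against 269, 284 and 300 CPM. Of 25 glycolysis and hypoxia genes 5 were higher and 10 lower, or 9 and 8 with library totals. Of 14 Hippo pathway genes 6 were higher and 4 lower, beside 28.3% higher and 29.1% lower over all genes tested. Nf2, a Hippo pathway tumour suppressor, fell by 0.44 on the log2 scale and Amotl1, a partner of Yap1, rose by 0.69. Of 6 tested genes of the list for the two-cell-like state 3 were higher and 0 lower. Zscan4c rose by 0.58, but near-identical Zscan4 copies can share reads and its level is uncertain.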
